A study of Mus musculus with 8 samples.

Results

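Cytochrome P450 (Cyp) genes were examined in glomeruli of mice that lack the tetraspanin Cd151 and of their wild type controls. The members are the rows of the deposited array table whose symbol names a P450 by family, subfamily and number, which gave 92 of the 25697 probes and 68 of the 18120 gene symbols. Glomerular RNA came from 4 Cd151+/+ and 4 Cd151-/- mice, of the FVB/N strain and 3 weeks old by their labels and all male by the methods. The RNA of each mouse was hybridised to 1 Illumina MouseRef-8 v1.1 array. The Cd151-/- mice carry a homozygous deletion of the gene and the controls its wild type alleles. The sources used here name no cell-type promoter for the deletion, and on this strain the mice develop proteinuria and damage to the glomerular basement membrane early in life. Glomeruli were taken at 3 to 4 weeks of age by the methods, after perfusing magnetic beads through the heart, digesting the kidneys with collagenase and washing on a magnet.

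P450 enzymes are haem proteins of the endoplasmic reticulum and mitochondria that insert an oxygen atom into fatty acids, sterols, vitamins and foreign compounds, with electrons passed to them by reductase partners. In the kidney, most of the P450 that handles arachidonic acid lies in the proximal tubule and the renal vessels, where omega-hydroxylases and epoxygenases form lipids that act on vessel tone and salt transport. The kidney is also the main site of vitamin D activation, and retinoic acid, which other P450 enzymes clear, is a known signal for podocyte differentiation.

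Levels below are normalised log2 signals, in which the brightness of the beads of a probe was corrected for the background of its array and made comparable between arrays. A probe was counted as detected on an array where its detection p-value, the share of the array's negative controls with equal or higher brightness, was 0.05 or lower. Differences are Cd151-/- minus Cd151+/+, tested by limma, and p-values were adjusted after Benjamini-Hochberg across the 14967 probes detected on at least 1 array. The targeted gene was at background in 4 of 4 Cd151-/- mice on all 3 of its probes, the brightest at least 523-fold lower than in Cd151+/+ mice (adjusted p = 6.51e-10). By background the arrays formed a higher set (Cd151+/+ mice 3 and 4, Cd151-/- mice 1 and 2) and a lower set (Cd151+/+ mice 1 and 2, Cd151-/- mice 3 and 4), with 11291 to 12359 probes detected per array. The podocyte marker Cdkn1c was detected in every mouse, and so were 12 of 16 tested proximal tubule markers, whose signals are given with the Cyp results below. The hepatocyte markers Alb and Apoa1 were detected in no mouse, and Ttr and Serpina1a in 1 and 2 Cd151+/+ mice and no Cd151-/- mouse. With 4 arrays per genotype the precision of all values is limited.

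Fewer Cyp probes than probes in general were above background. Of the 92 Cyp probes 42 (45.7%) were detected on at least 1 array and could be tested, against 58.2% of all probes. They stand for 31 genes, of which 13 had a probe detected on all 8 arrays and 18 only on 1 to 7 arrays. The 37 genes detected in no mouse included Cyp27b1, which makes active vitamin D, and the vitamin D hydroxylase Cyp2r1. They also included Cyp11a1, Cyp11b1, Cyp19a1 and Cyp21a1 of steroid hormone synthesis, Cyp26a1 of retinoic acid clearance, Cyp7a1 and Cyp8b1 of bile acid synthesis, and the dioxin-inducible Cyp1a1 and Cyp1a2. Among the epoxygenase subfamilies, Cyp2j5, Cyp2j6, Cyp2c29, Cyp2c38, Cyp2c39, Cyp2c40, Cyp2c50, Cyp2c55, Cyp2c65 and Cyp2c70 were at background, as were the omega-hydroxylase relatives Cyp4f14 and Cyp4f15. The 6 drug-metabolising Cyp3a genes on the array were at background (Cyp3a11, Cyp3a13, Cyp3a16, Cyp3a25, Cyp3a41 and Cyp3a44), and so were Cyp2a12, Cyp2b9, Cyp2b13, Cyp2b19, Cyp2b20, Cyp2d13, Cyp2f2 and Cyp2g1. A probe at background gives no level, so it does not show that a gene was silent.

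Between the genotypes, the differences of the Cyp genes lay in both directions and no member passed adjustment. With limma, 0 of 42 Cyp probes had a Benjamini-Hochberg adjusted p below 0.05, a call made for 0.0334% of all tested probes. At an unadjusted p below 0.05 in the same limma test, 1 Cyp probe (2.38%) was higher in Cd151-/- mice, where 1.69% of all probes were, and 3 (7.14%) were lower, where 2.61% of all probes were. The 3 lower genes were Cyp2s1, Cyp27a1 and Cyp26b1, and the higher probe belongs to Cyp2j11. With scaling to the 75th percentile in place of quantile normalisation, 0 Cyp probes were higher and 2 lower at that threshold. Groups without overlap were found for 1 Cyp probe that was higher (2.38%, against 0.855% of all probes), of Cyp2d10, which entered the test only through Cd151-/- mice, and for 0 that were lower, against 1.46% of all probes. The Cyp shares rest on 1 to 3 probes each.

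With 1 probe per gene, the one with the highest mean signal, 17 of the 31 tested genes were higher in Cd151-/- mice and 14 lower. Their median log2 fold change was 0.05, beside -0.0018 for all 11240 genes tested, of which 49.7% were higher. The Cyp differences ran from -1.19 for Cyp2s1 to 1.19 for Cyp4a14. In 10 of the 31 genes the probe was detected in 1 genotype only, 6 in Cd151-/- and 4 in Cd151+/+ mice, and for these the difference is no measure of size. The 21 genes detected in both genotypes had a median of 0.08, with 12 higher and 9 lower. The median of the 31 genes is smaller than the SD between mice of the same median, which was 0.152 on the log2 scale. It turned negative with scaling to the 75th percentile (-0.0077, 15 genes higher and 16 lower), without Cd151+/+ mouse 1 (-0.044) and without Cd151-/- mouse 4 (-0.067).

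**Figure D1:**
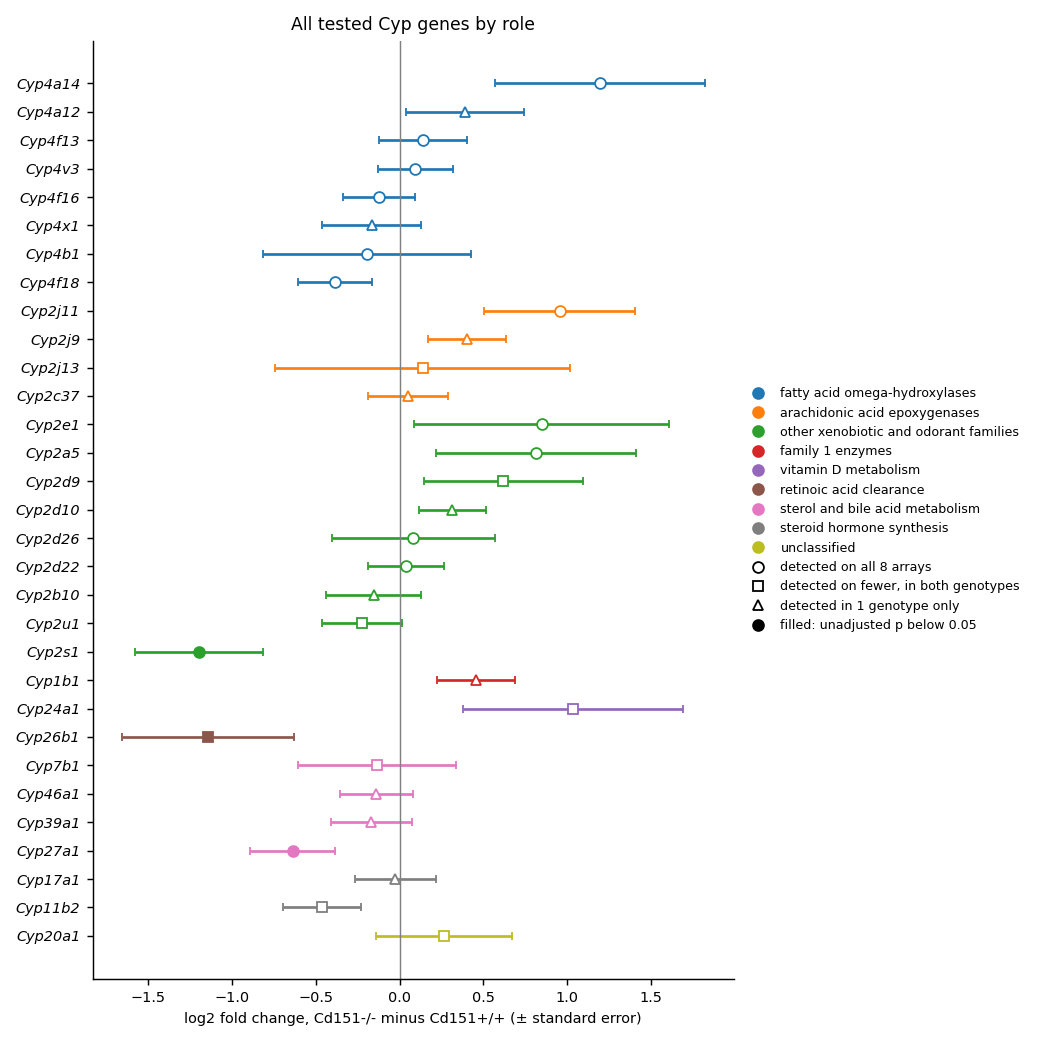
Log2 fold change (Cd151-/- minus Cd151+/+, horizontal axis) of each of the 31 tested Cyp genes, ordered by role and coloured by it, with bars for the limma standard error. Circles are genes detected on all 8 arrays, squares genes detected on fewer arrays in both genotypes, triangles genes detected in 1 genotype only, and filled symbols have an unadjusted p below 0.05: Cyp2s1, Cyp26b1 and Cyp27a1, all to the left of 0.

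The 4 genes with a probe past the unadjusted threshold differ in the sequence in front of their start. The 250 bases upstream of the RefSeq start of each are given 5′ to 3′ on the strand of the gene, in build GRCm38.p6, to set the 3 lower genes beside Cyp2j11. Capitals mark every match to 3 short motifs, each searched on both strands. They are the promoter box written TATAAA, the GC box, written as GGGCGG or, when it lies on the other strand, by the complementary letters, and the core site of nuclear receptors, written AGGTCA. No printed matches overlap.
Cyp27a1 (chr1:74713285-74713534, plus strand): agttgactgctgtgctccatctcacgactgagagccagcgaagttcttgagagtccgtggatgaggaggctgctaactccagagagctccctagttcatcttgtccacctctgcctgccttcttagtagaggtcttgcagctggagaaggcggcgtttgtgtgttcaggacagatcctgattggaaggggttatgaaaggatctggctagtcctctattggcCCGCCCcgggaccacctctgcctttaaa
Cyp2s1 (chr7:25816526-25816775, minus strand): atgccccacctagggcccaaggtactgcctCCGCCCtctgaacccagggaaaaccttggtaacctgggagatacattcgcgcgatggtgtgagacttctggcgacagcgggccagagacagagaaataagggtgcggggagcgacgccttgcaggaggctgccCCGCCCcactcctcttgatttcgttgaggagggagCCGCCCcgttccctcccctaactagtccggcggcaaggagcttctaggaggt
Cyp26b1 (chr6:84593811-84594060, minus strand): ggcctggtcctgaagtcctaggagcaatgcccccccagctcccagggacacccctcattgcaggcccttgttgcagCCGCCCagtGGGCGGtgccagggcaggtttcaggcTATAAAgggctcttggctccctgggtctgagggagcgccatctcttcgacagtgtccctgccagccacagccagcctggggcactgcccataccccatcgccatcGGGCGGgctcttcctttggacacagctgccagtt
Cyp2j11 (chr4:96348681-96348930, minus strand): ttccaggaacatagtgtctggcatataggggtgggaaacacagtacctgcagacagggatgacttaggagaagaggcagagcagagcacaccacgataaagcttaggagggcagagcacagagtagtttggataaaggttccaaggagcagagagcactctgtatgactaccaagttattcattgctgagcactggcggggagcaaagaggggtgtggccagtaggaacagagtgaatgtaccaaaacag

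The windows of Cyp27a1, Cyp2s1 and Cyp26b1 hold 1, 3 and 3 GC boxes, and that of Cyp26b1 also the TATAAA box, whereas the Cyp2j11 window holds none of these letters. Of 21 tested Cyp genes with an entry in the promoter table, 11 (52.4%) hold a GC box, 6 (28.6%) the TATAAA box and 0 the receptor core site. Among all 32851 windows of this length these shares were 32.7%, 12.4% and 14%. The matches describe letters in a window and are not shown to be sites of any factor.

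Among the fatty acid omega-hydroxylases, which oxidise the end of the fatty acid chain, 8 of 10 genes were tested and 6 were detected on all 8 arrays. Of these 8, 4 were higher and 4 lower, with a median log2 fold change of -0.01 (3 and 5 with scaling to the 75th percentile), and 0 had an unadjusted p below 0.05. Cyp4a14, a peroxisome proliferator-inducible omega-hydroxylase, had signals of 8.24, 8.01, 8.35 and 11.32 in Cd151+/+ mice 1 to 4 and 10.52, 10.32, 9.59 and 10.26 in Cd151-/- mice 1 to 4. Cd151+/+ mouse 4 stood above every other mouse, and the 3 remaining Cd151+/+ mice lay below all Cd151-/- mice. The log2 fold change was 1.19 (SE 0.63), the largest positive one with 1 probe per gene, and did not pass (limma, unadjusted p = 0.0833, Benjamini-Hochberg adjusted p = 0.918; exact permutation p = 0.143). Without Cd151+/+ mouse 4 it was 1.99 (limma, unadjusted p = 2.89e-05, Benjamini-Hochberg adjusted p = 0.0712). Without Cd151+/+ mouse 1, 2 or 3 or Cd151-/- mouse 1 it was 0.87 to 1.08 (limma, unadjusted p from 0.151 to 0.21). For Cyp4a14 the unadjusted p was below 0.05 in 2 of 17 alternative settings.

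Cyp4b1, which acts on fatty acids and on foreign aromatic compounds, varied more within the genotypes than between them. Its signals were 11.91, 12.45, 11.76 and 11.21 in Cd151+/+ mice 1 to 4 and 10.75, 10.33, 11.73 and 13.75 in Cd151-/- mice 1 to 4. The highest and the lowest values both came from Cd151-/- mice, mouse 4 and mouse 2. The log2 fold change of -0.19 (SE 0.62; limma, unadjusted p = 0.76) became -0.89 without Cd151-/- mouse 4 (unadjusted p = 0.0429) and 0.25 without Cd151-/- mouse 2. The Cyp4f genes spanned a narrower range. Cyp4f13 had means of 9.90 ± 0.48 (SD, n = 4) in Cd151+/+ and 10.04 ± 0.22 in Cd151-/- mice, Cyp4f16 of 7.60 ± 0.14 (SD, n = 4) in Cd151+/+ and 7.47 ± 0.28 in Cd151-/- mice, and Cyp4f18, a leukotriene hydroxylase of leukocytes, of 6.69 ± 0.27 (SD, n = 4) in Cd151+/+ and 6.30 ± 0.23 in Cd151-/- mice. Their log2 fold changes were 0.14, -0.12 and -0.39, none with an unadjusted p below 0.05 in limma (0.606, 0.572 and 0.11). Cyp4v3, whose human counterpart is mutated in Bietti crystalline dystrophy, differed by 0.09 (SE 0.22). Cyp4a12, the androgen-dependent arachidonic acid omega-hydroxylase of male mouse kidney, was above background only in Cd151-/- mouse 4, which read 6.34. The brain enzyme Cyp4x1 was detected in 1 Cd151+/+ mouse only.

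The Cyp2c and Cyp2j subfamilies are grouped here as arachidonic acid epoxygenases, whatever the activity of each gene. They were represented by 14 genes, of which 4 were tested and 1, Cyp2j11, was detected on all 8 arrays. All 4 were higher in Cd151-/- mice, with a median log2 fold change of 0.27 (3 of 4 and 0.10 with scaling to the 75th percentile, where Cyp2c37 was lower), though 2 of them (Cyp2j9 and Cyp2c37) were detected in 0 of 4 Cd151+/+ mice and in 1 Cd151-/- mouse each, and Cyp2j13 turned to -0.93 when Cd151-/- mouse 4 was left out, and to -0.15 or -0.13 when Cd151+/+ mouse 1 or 4 was. The brighter Cyp2j11 probe read 9.05, 9.27, 9.81 and 10.35 in Cd151+/+ mice 1 to 4 and 11.04, 9.50, 10.13 and 11.64 in Cd151-/- mice 1 to 4. Cd151-/- mice 1 and 4 lay above all Cd151+/+ mice, while Cd151-/- mice 2 and 3 were within their range. This made a log2 fold change of 0.96 (SE 0.45), a 1.94-fold difference (limma, unadjusted p = 0.0573, Benjamini-Hochberg adjusted p = 0.918; exact permutation p = 0.143). The unadjusted p was below 0.05 without Cd151+/+ mouse 4 (log2 fold change 1.21, limma, unadjusted p = 0.029), without Cd151-/- mouse 2 (1.32, unadjusted p = 0.00837) and without Cd151-/- mouse 3 (unadjusted p = 0.0477). It was 0.60 without Cd151-/- mouse 4 (limma, unadjusted p = 0.178), and between 0.76 and 1.02 without any of the other mice (limma, unadjusted p from 0.0749 to 0.142).

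A second Cyp2j11 probe, ILMN_1258039, was above background on 2 Cd151+/+ and all 4 Cd151-/- arrays and read 5.01, 4.81, 6.35 and 6.96 in Cd151+/+ mice 1 to 4 and 8.20, 6.80, 5.79 and 7.74 in Cd151-/- mice 1 to 4. Cd151-/- mice 1 and 4 were again highest, and mice 2 and 3 lay within the Cd151+/+ range. This was the 1 Cyp probe that was higher at an unadjusted p below 0.05 (log2 fold change 1.35, SE 0.58, p = 0.0404; adjusted p = 0.918, limma with Benjamini-Hochberg adjustment), while the exact permutation test gave p = 0.143. It kept an unadjusted p below 0.05 in 10 of 17 alternative settings, and did not without Cd151+/+ mouse 1 or 2 or Cd151-/- mouse 1 or 4 (log2 fold changes of 0.96 to 1.17, p from 0.103 to 0.117). Cyp2j13, a kidney enzyme of the same subfamily that is named here after its values were seen, read 5.07, 7.06, 6.30 and 4.94 in Cd151+/+ mice 1 to 4 and 5.08, 4.77, 4.95 and 9.11 in Cd151-/- mice 1 to 4. It was detected in 2 Cd151+/+ mice and in Cd151-/- mouse 4 only, which held the highest value.

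Of 23 genes of the other xenobiotic and odorant subfamilies 9 were tested, 6 of them higher and 3 lower in Cd151-/- mice (median log2 fold change 0.08). Cyp2s1, an extrahepatic epithelial enzyme that oxidises retinoids and lipid peroxides, read 10.67, 9.44, 9.36 and 10.90 in Cd151+/+ mice 1 to 4 and 8.84, 9.49, 8.77 and 8.49 in Cd151-/- mice 1 to 4. Cd151+/+ mice 1 and 4 lay well above all others, and Cd151-/- mouse 2 was the 1 Cd151-/- mouse that reached the range of the other Cd151+/+ mice. The log2 fold change of -1.19 (SE 0.38) corresponds to a signal 2.29 times lower and had the smallest unadjusted p of the Cyp probes (limma, p = 0.00966), though not after Benjamini-Hochberg adjustment (0.918; exact permutation p = 0.0857). It was below 0.05 in 17 of 17 alternative settings, with log2 fold changes from -1.44 to -0.94.

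Cyp2e1, the ethanol- and acetone-inducible enzyme, read 7.52, 8.98, 9.52 and 9.21 in Cd151+/+ mice 1 to 4 and 9.91, 8.43, 8.20 and 12.09 in Cd151-/- mice 1 to 4. Cd151-/- mouse 4 was highest, and Cd151+/+ mouse 1 lowest. The log2 fold change of 0.85 (SE 0.76; limma, unadjusted p = 0.289) was 0.04 without Cd151-/- mouse 4. Cyp2e1 is also the 1 member that lies within 10 Mb of Cd151 in the RefSeq gene table, and the part of that position in its value was not tested. Cyp2a5, the coumarin and nicotine hydroxylase, read 6.09, 7.10, 6.32 and 6.31 in Cd151+/+ mice 1 to 4 and 7.55, 5.93, 6.39 and 9.21 in Cd151-/- mice 1 to 4 on its brightest probe, again highest in Cd151-/- mouse 4. That probe had a log2 fold change of 0.81 (limma, unadjusted p = 0.199), which was 0.17 without that mouse and 1.25 without Cd151-/- mouse 2 (limma, unadjusted p = 0.0434). A second of its 4 probes, detected in 2 mice of each genotype, differed by 0.74 (limma, unadjusted p = 0.324). The third was tested only through 2 Cd151-/- mice, being at background in every Cd151+/+ mouse, so its difference of 0.68 is no measure of size, and the fourth was detected in no mouse.

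The Cyp2d genes are relatives of the main human drug-metabolising CYP2D enzyme. Cyp2d22 had means of 10.90 ± 0.27 (SD, n = 4) in Cd151+/+ and 10.93 ± 0.27 in Cd151-/- mice (log2 fold change 0.04, SE 0.23). Cyp2d26 read 7.75, 7.85, 8.78 and 9.65 in Cd151+/+ mice 1 to 4 and 9.50, 7.72, 8.07 and 9.06 in Cd151-/- mice 1 to 4, with Cd151+/+ mouse 4 and Cd151-/- mouse 1 highest, and its log2 fold change of 0.08 (SE 0.49) spanned 0. Cyp2d10 was above background in every Cd151-/- mouse and no Cd151+/+ mouse, and it was the 1 Cyp gene without overlap, at 5.28, 5.14, 4.89 and 5.20 in Cd151+/+ mice 1 to 4 and 5.32, 5.33, 5.64 and 5.48 in Cd151-/- mice 1 to 4. Measured against the lowest detected signals of the Cd151+/+ arrays it was on average at least 1.04-fold higher. Yet Cd151-/- mice 1 and 2 read below those signals of Cd151+/+ mice 1, 2 and 3 (5.48, 5.46 and 5.34). The log2 difference of 0.32 had an adjusted p of 0.918 (limma with Benjamini-Hochberg adjustment), which is not a test of that bound. With scaling to the 75th percentile the difference was 0.08 (limma, unadjusted p = 0.817). The Cyp2d10 signals lay at the edge of detection, and the probe was tested only because of the genotype in which it was higher. Cyp2d9 was detected in 1 Cd151+/+ and 2 Cd151-/- mice, Cyp2u1 in 3 and 2, and the phenobarbital-inducible Cyp2b10 in 1 and 0.

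The family 1 enzyme Cyp1b1, which oxidises oestrogens and polycyclic hydrocarbons outside the liver, was above background in 2 Cd151-/- mice and no Cd151+/+ mouse. It read 4.90, 4.71, 4.86 and 4.70 in Cd151+/+ mice 1 to 4 and 5.40, 5.73, 5.02 and 4.86 in Cd151-/- mice 1 to 4, and Cd151-/- mice 1 and 2 were highest (limma, unadjusted p = 0.0768, and 0.0289 without Cd151-/- mouse 4). The Cyp1b1 probe was tested only through the genotype in which it was higher, so these p-values are no support for a difference. Cyp24a1, which inactivates vitamin D and is induced through its receptor, was the 1 of 3 vitamin D genes tested. It read 5.49, 4.70, 5.90 and 6.68 in Cd151+/+ mice 1 to 4 and 7.69, 8.15, 4.87 and 6.21 in Cd151-/- mice 1 to 4. Cd151-/- mice 1 and 2 were the highest, while Cd151-/- mouse 3 was among the lowest, and the log2 fold change of 1.04 (SE 0.66) had an unadjusted p of 0.143 in limma. It was 0.55 without Cd151-/- mouse 2 (limma, unadjusted p = 0.371) and 1.69 without Cd151-/- mouse 3 (limma, unadjusted p = 0.0102). The signal of Vdr, the vitamin D receptor, differed by -0.01 (SE 0.24).

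Cyp26b1, which degrades retinoic acid, was the 1 tested gene of 2 for retinoic acid clearance. It read 6.45, 7.52, 7.63 and 6.62 in Cd151+/+ mice 1 to 4 and 5.39, 5.46, 7.63 and 5.17 in Cd151-/- mice 1 to 4. In 3 of 4 Cd151-/- mice it was below every Cd151+/+ mouse, and in Cd151-/- mouse 3 it was as high as in the highest Cd151+/+ mice. On average the log2 fold change was -1.14 (SE 0.51), a signal 2.21 times lower (limma, unadjusted p = 0.0484, Benjamini-Hochberg adjusted p = 0.918; exact permutation p = 0.143). Without Cd151-/- mouse 3 it was -1.75 (unadjusted p = 3.33e-04), and over 17 alternative settings the unadjusted p was below 0.05 in 6. It was not below 0.05 when any other single mouse except Cd151+/+ mouse 1 was left out (log2 fold changes of -1.24 to -0.91, p from 0.0516 to 0.13, limma), nor without normexp (-0.55, unadjusted p = 0.099), with a cubic spline (-1.02, unadjusted p = 0.0577) or without a detection filter (-1.14, unadjusted p = 0.0778).

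The 4 tested genes of sterol and bile acid metabolism, of 6 on the array, were all lower in Cd151-/- mice (median log2 fold change -0.15, and -0.40 with scaling to the 75th percentile), 1 of them at an unadjusted p below 0.05. Of these, Cyp39a1 and Cyp46a1 were detected in 1 genotype only, so their differences are no measure of size. The median of -0.15 lies between their values. Cyp27a1, the mitochondrial sterol hydroxylase that opens the acidic route of bile acid synthesis, read 11.19, 11.21, 10.46 and 10.74 in Cd151+/+ mice 1 to 4 and 9.87, 10.23, 10.36 and 10.60 in Cd151-/- mice 1 to 4 on its brightest probe. Each Cd151-/- mouse was below Cd151+/+ mice 1, 2 and 4, and Cd151+/+ mouse 3 lay within the Cd151-/- range. The log2 fold change was -0.64 (SE 0.25), a signal 1.56 times lower (limma, unadjusted p = 0.0278, Benjamini-Hochberg adjusted p = 0.918; exact permutation p = 0.0571). The unadjusted limma p lay between 0.0513 and 0.0865 without Cd151+/+ mouse 1 or 2 or Cd151-/- mouse 1 or 2 (log2 fold changes of -0.63 to -0.51), and was 0.0688 with scaling to the 75th percentile (-0.61). A second probe gave -0.50 (unadjusted p = 0.118) and the dimmest -0.01 (unadjusted p = 0.971), so the 3 probes of the gene differed in size. The oxysterol hydroxylase Cyp7b1 was detected in 4 Cd151+/+ and 3 Cd151-/- mice, with means of 6.39 ± 0.69 (SD, n = 4) in Cd151+/+ and 6.26 ± 0.95 in Cd151-/- mice. Cyp39a1, another oxysterol hydroxylase, was detected in 1 Cd151-/- mouse only, and a second, dimmer Cyp39a1 probe differed by 0.01 in the other direction. The brain cholesterol hydroxylase Cyp46a1 was detected in 1 Cd151+/+ mouse only, so it was tested only through the genotype in which it was higher.

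For steroid hormone synthesis 2 of 6 genes were tested. Aldosterone synthase, Cyp11b2, was detected in 3 Cd151+/+ mice and 1 Cd151-/- mouse and read 6.09, 5.77, 5.25 and 5.46 in Cd151+/+ mice 1 to 4 and 5.22, 5.08, 5.03 and 5.39 in Cd151-/- mice 1 to 4. The groups overlapped, and the log2 fold change of -0.46 (SE 0.23) had an unadjusted p of 0.0721 in limma (exact permutation p = 0.0571). Without Cd151+/+ mouse 3 it was -0.60 (limma, unadjusted p = 0.0319). The androgen synthesis gene Cyp17a1 was detected in 1 Cd151+/+ mouse. The orphan enzyme Cyp20a1 had means of 5.84 ± 0.60 (SD, n = 4) in Cd151+/+ and 6.11 ± 0.77 in Cd151-/- mice, a log2 fold change of 0.27 (SE 0.40).

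**Figure D2:**
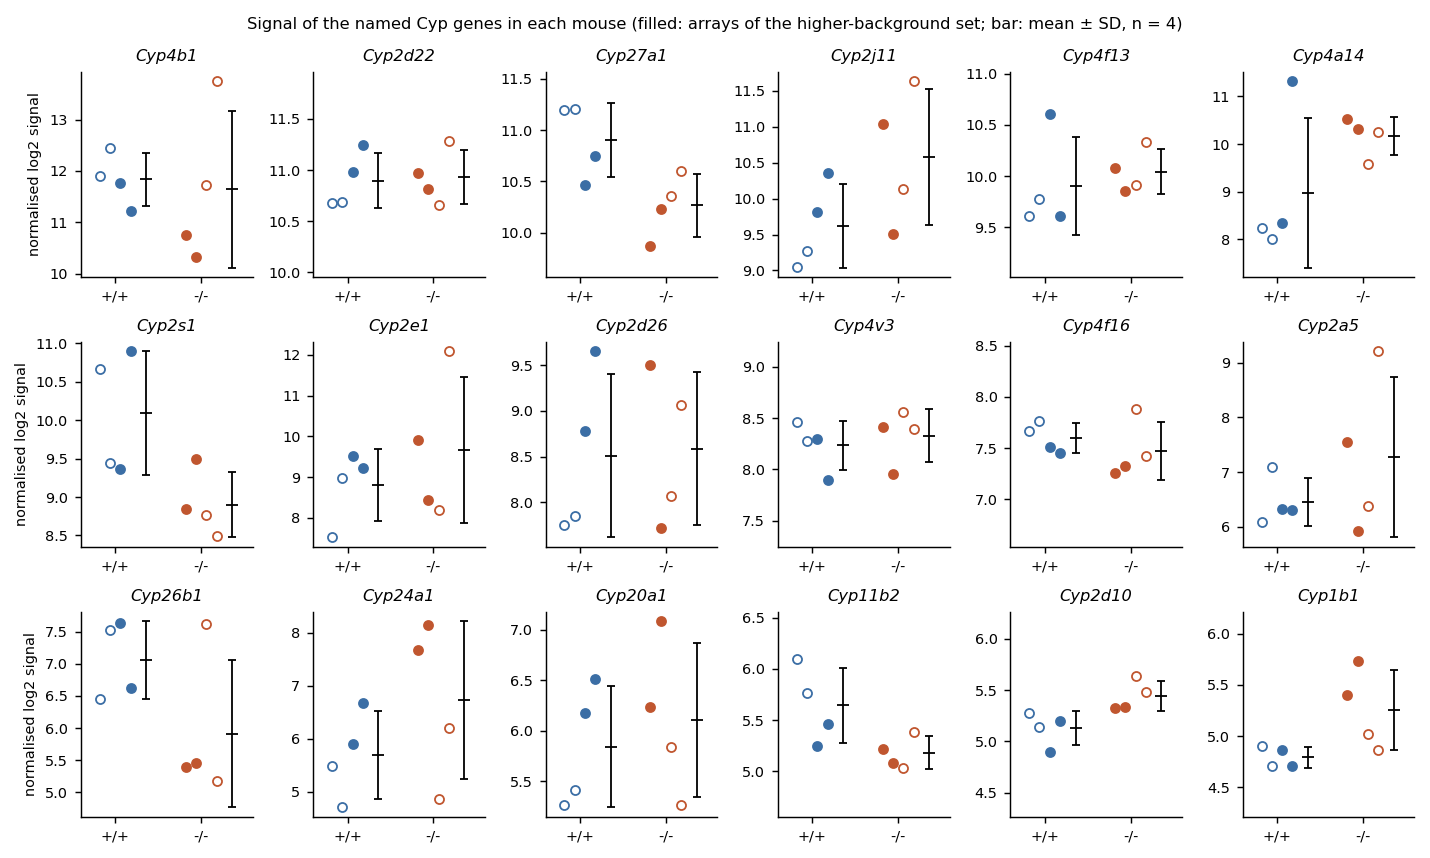
Normalised log2 signal (vertical axis, a scale per panel) of 18 Cyp genes in the 4 Cd151+/+ (blue) and 4 Cd151-/- (orange) mice, in order of mouse number, with filled circles for arrays of higher background and bars for the mean ± SD. The genotypes overlap in all panels except Cyp2d10, and single mice stand apart for Cyp4a14 (Cd151+/+ mouse 4, 11.32) and Cyp26b1 (Cd151-/- mouse 3, 7.63).

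The Cyp genes also varied between mice of the same genotype. Of the 13 genes detected on all 8 arrays, 5 were highest in Cd151-/- mouse 4 (38.5%), where 19.4% of all genes detected on 8 arrays had their highest value. These were Cyp4b1, Cyp2d22, Cyp2j11, Cyp2e1 and Cyp2a5. Cd151+/+ mouse 4 was highest for 3, and Cd151+/+ mouse 1, Cd151-/- mouse 1 and Cd151-/- mouse 2 for 0.

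Markers of the proximal tubule, which expresses many of these enzymes, were higher in Cd151-/- mice in 16 of 16 tested cases. This direction held under each of the 4 scalings. With quantile normalisation the median log2 fold change was 0.70, and 49.7% of all tested genes were higher. Lrp2 and Pck1 were each detected in 0 Cd151+/+ and 2 Cd151-/- mice, so they were tested only through the genotype in which they were higher. In limma 2 of the 16 markers (Slc22a8 and Kap) had an unadjusted p below 0.05 and 0 an adjusted one. Of all tested probes 1.69% were higher at that unadjusted threshold. Without normexp 1 marker had an unadjusted p below 0.05, where 1.52% of all tested probes were higher at that threshold. Their mean signal was 8.54, 8.93, 9.31 and 9.98 in Cd151+/+ mice 1 to 4 and 10.12, 9.55, 9.52 and 10.57 in Cd151-/- mice 1 to 4. It was thus highest in Cd151-/- mouse 4, then in Cd151-/- mouse 1 and Cd151+/+ mouse 4. Summed over the list, the linear signal was 27976 to 85361 in the controls, and 53244 to 103684 without Cd151, and 1 listed marker, Slc7a13, was detected in no mouse. The methods state that glomeruli were washed to a high purity, the part of tubular material in the Cyp differences was not tested, and in such bulk samples fewer cells of a type and less RNA per cell cannot be told apart.

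Glomerular markers ran the other way, with 6 of 6 tested podocyte markers (median -0.25, and 5 of 6 with a cubic spline) and 7 of 8 endothelial markers (median -0.39) lower in Cd151-/- mice. The endothelial marker Kdr was detected in 2 Cd151+/+ and 0 Cd151-/- mice, so it was tested only through the genotype in which it was higher. The summed linear signal of the podocyte list was 102149 to 109071 in Cd151+/+ and 87458 to 110951 in Cd151-/- mice, that of the endothelial list 37304 to 46649 and 24342 to 47046. Loop and distal markers were also mostly lower (3 of 4, median -0.33, and 4 of 4 with scaling to the 75th percentile), with summed signals of 22022 to 44037 and 15026 to 28332. Mesangial and smooth muscle markers (2 higher, 4 lower) and leukocyte markers (3 higher, 2 lower, and the reverse with scaling to the 75th percentile) were divided. Of these lists 1 podocyte marker, Plce1, and 1 mesangial marker, Pdgfrb, were lower at an unadjusted p below 0.05, which neither list held with scaling to the 75th percentile (0 markers lower in each), and Acta2 was higher. With quantile normalisation 2.61% of all tested probes were lower and 1.69% higher at that threshold. The 2 tested hepatocyte markers, Ttr and Serpina1a, were detected in 1 and 2 Cd151+/+ mice and in 0 Cd151-/- mice.

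**Figure D3:**
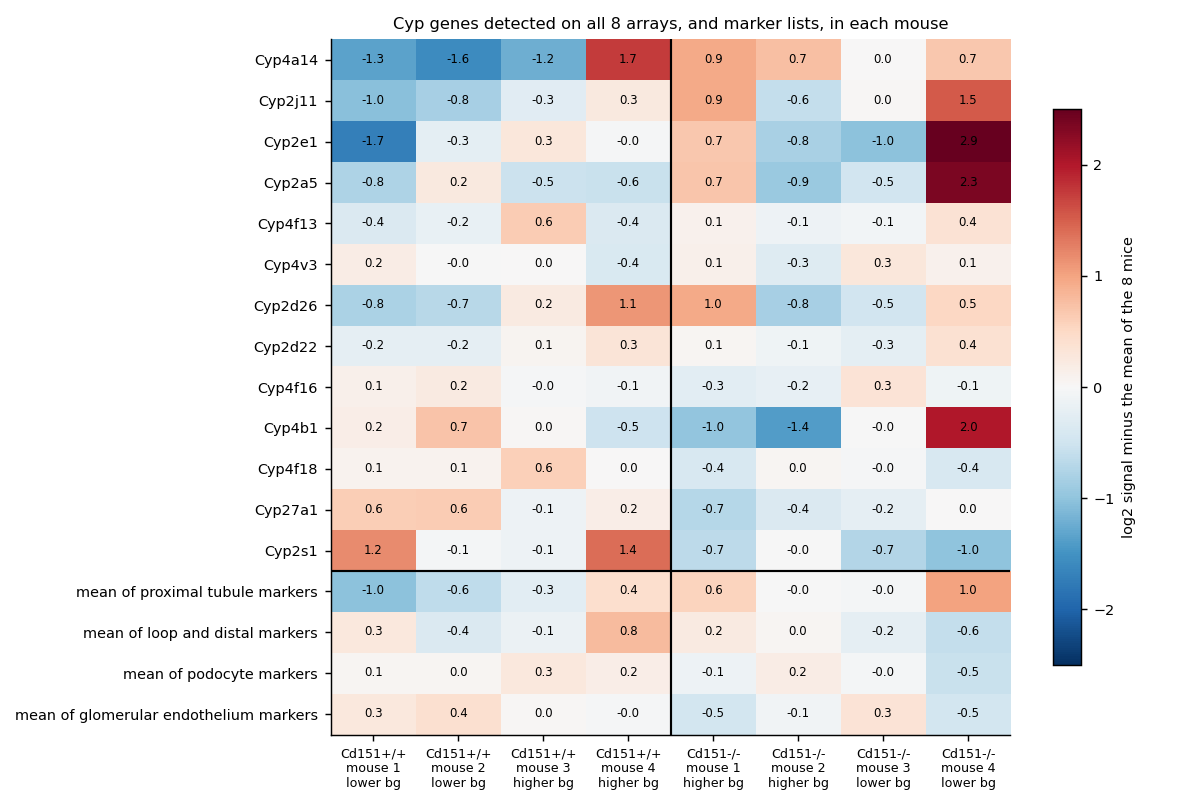
Log2 signal minus the mean of the 8 mice (colour and printed value) for the 13 Cyp genes detected on all 8 arrays, ordered from the highest to the lowest log2 fold change, and below the line for the mean of 4 marker lists. Columns are the mice, with the background set of each array (bg) under its name. Cd151-/- mouse 4 has the largest values for Cyp2e1, Cyp2a5, Cyp4b1 and Cyp2j11 and for the proximal tubule markers.

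Because each background set holds 2 mice of each genotype, the difference could also be read within each set. Cyp2s1 was lower in both, by a difference of -1.43 on the lower-background and -0.96 on the higher-background arrays, as were Cyp27a1 (-0.72 and -0.55) and Cyp26b1 (-0.58 and -1.70). Cyp2j11 was higher in both, by 1.72 and 0.19, and so was Cyp4a14, by 1.80 and 0.59. Of the 18 genes named by signal, role or unadjusted p, 5 had opposite directions in the sets, namely Cyp4b1 (0.56 and -0.95), Cyp2e1 (1.89 and -0.19), Cyp2d26 (0.76 and -0.60), Cyp2d22 and Cyp4f13. With 2 mice against 2 in a set these values carry no test.

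With the set as a block in limma, an unadjusted p below 0.05 was reached by 4 Cyp probes (9.52%) that were higher and by 4 (9.52%) that were lower, where 5.21% and 6.08% of all tested probes were. The lower probes belonged to Cyp27a1 (unadjusted p = 0.00346 and 0.0136), Cyp2s1 (0.00967) and Cyp11b2 (0.0323), and the higher ones to Cyp2j11 (0.0143), Cyp24a1 (0.0205), Cyp1b1 (0.0375) and Cyp2a5 (0.0497). The Cyp1b1 probe and that Cyp2a5 probe were each detected in 0 Cd151+/+ and 2 Cd151-/- mice and so were tested only through the genotype in which they were higher. Cyp26b1 was not among them. The Benjamini-Hochberg adjusted p of these 8 probes lay between 0.351 and 0.443 in limma, so none passed under the block either.

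**Figure D4:**
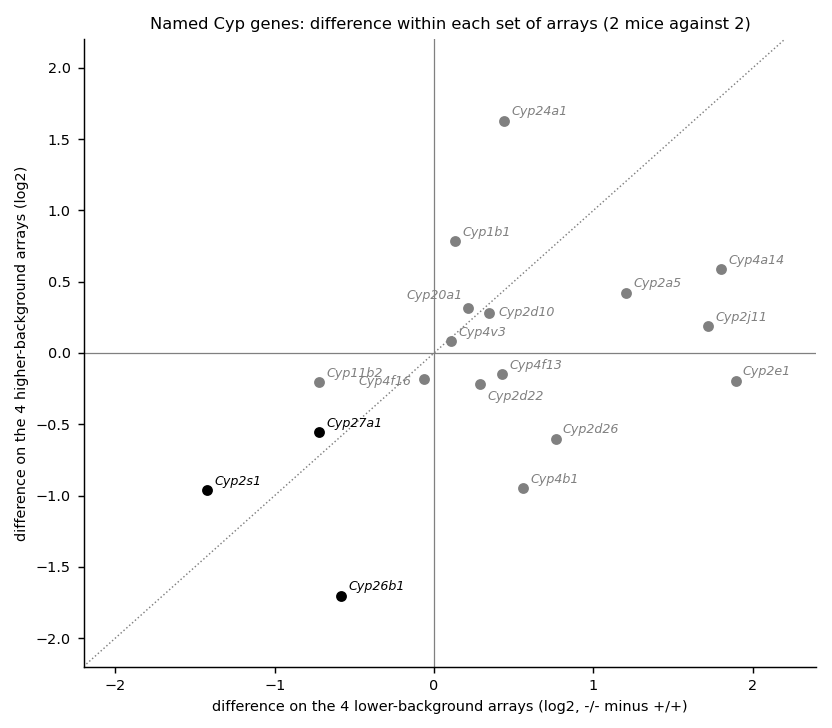
Log2 difference (Cd151-/- minus Cd151+/+) of 18 Cyp genes on the 4 arrays of lower background (horizontal axis) and on the 4 of higher background (vertical axis), 2 mice against 2 in each, with a dotted line where both are equal. Cyp2s1, Cyp27a1 and Cyp26b1 (black, unadjusted p below 0.05) lie in the lower left, and Cyp4b1, Cyp2d26, Cyp2d22, Cyp4f13 and Cyp2e1 are above 0 on one axis and below 0 on the other.

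Partner genes of the P450 enzymes were read from the same fit. Among electron donors 7 of 9 were tested, 5 higher and 2 lower, and 0 had an unadjusted p below 0.05. Por, the reductase that serves the microsomal P450 enzymes, read 9.85, 9.98, 10.62 and 10.46 in Cd151+/+ mice 1 to 4 and 11.03, 10.37, 9.97 and 11.40 in Cd151-/- mice 1 to 4. It was highest in Cd151-/- mouse 4, and its log2 fold change of 0.46 (SE 0.33) had an unadjusted p of 0.186 in limma. Fdxr, which supplies mitochondrial enzymes such as Cyp27a1 and Cyp24a1, differed by 0.12 (SE 0.28). All 7 haem synthesis genes were tested, 4 higher and 3 lower (median 0.0065, and 3 and 4 under the 3 other scalings), none with an unadjusted p below 0.05 in limma.

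Of 11 nuclear receptors and transcription factors that control P450 genes 7 were tested, 3 higher and 4 lower (4 and 3 with scaling to the 75th percentile), with 0 at an unadjusted p below 0.05. Hnf4a, a driver of hepatic and tubular P450 genes, read 7.47, 7.76, 9.15 and 8.87 in Cd151+/+ mice 1 to 4 and 9.86, 8.84, 8.36 and 10.20 in Cd151-/- mice 1 to 4, with a log2 fold change of 1.00 (SE 0.48; limma, unadjusted p = 0.0595). Its levels ran from low in Cd151+/+ mice 1 and 2 to high in Cd151-/- mice 1 and 4. Ahr, Ppara and Nr1i3 were detected in no mouse.

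The 4 epoxide hydrolases and prostanoid synthases were all detected in every mouse. Ephx2, the soluble hydrolase that breaks down epoxygenase products, read 7.13, 7.62, 8.09 and 8.16 in Cd151+/+ mice 1 to 4 and 9.49, 8.08, 7.99 and 9.92 in Cd151-/- mice 1 to 4. It was higher in Cd151-/- mice by a log2 fold change of 1.12 (SE 0.44; limma, unadjusted p = 0.0282, Benjamini-Hochberg adjusted p = 0.918; exact permutation p = 0.171), and the groups overlapped. Ptgis, the P450-like prostacyclin synthase, read 9.69, 9.24, 8.25 and 8.82 in Cd151+/+ mice 1 to 4 and 7.98, 8.37, 8.61 and 8.09 in Cd151-/- mice 1 to 4. It was lower in Cd151-/- mice (log2 fold change -0.74, SE 0.31; limma, unadjusted p = 0.0363, Benjamini-Hochberg adjusted p = 0.918; exact permutation p = 0.0857). Ephx1, the microsomal hydrolase, and Tbxas1, thromboxane synthase, had log2 fold changes of -0.50 and -0.06 with an unadjusted p above 0.05.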

How the data were processed

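Glomerular RNA of 8 mice was amplified, labelled with biotin and read on 8 Illumina BeadChips of the MouseRef-8 v1.1 kind. The authors deposited a table of signal intensity per probe and array, neither background-subtracted nor normalised, and a detection p-value in steps of 1 over 798. The submitters' notes name GenomeStudio, with no version.

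Groups came from the sample labels. In R 4.3.3 with limma 3.58.1, array backgrounds were estimated through the detection p-values, signals were corrected by normexp with an offset of 16, quantile-normalised and taken to log2, and genotypes were fitted with lmFit and eBayes over the 14967 probes detected on at least 1 array (detection p-value of 0.05 or lower), with two-sided tests and Benjamini-Hochberg adjustment. Single probes were also tested with the two-sided exact permutation test over 70 relabelings, which cannot give a p below 0.0286. A fold against a genotype that detected a probe in no mouse is a bound, set by the lowest detected signal of each array. The procedure was tested on simulated data.

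Named genes are the 12 Cyp genes with the highest mean signal, the brightest of each role group, and those past an unadjusted p of 0.05 or with groups that did not overlap. Cyp2j13 and Cyp4a12 were added after their values were seen. Role groups were set by subfamily, not by the activity of each gene. Of several probes the one with the highest mean was used. The members, gene lists and background sets were chosen with earlier results of these data known. Cyp51 and 4 Cypt symbols, which are not numbered like the members or are not P450 genes, were left out.

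Of the 68 symbols 65 matched the RefSeq gene table (GRCm38.p6) directly, 2 through a synonym and 1 not. Mice share numbers across genotypes, and the labels do not say whether a number pairs mice. Same-numbered mice did not deviate together (r from -0.583 to -0.0086 across probes). Their arrays always fell in opposite background sets, so these correlations cannot show whether the numbers pair mice. The main model used no pairing. The alternatives concerned the background correction (none), the normalisation (a cubic spline with 15 quantiles, or a shift to the 75th percentile), the probes tested (all, or those detected in all 4 mice of a genotype), the model (the mouse number or background set as a block, array weights, or a robust variance with a trend) and the mice, each left out in turn.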

Additional observations from a re-analysis of the deposited data

Results flagged for a closer look

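In 3 of 42 groups of 4 mice, 1 mouse lay farther from the others than Dixon's critical value for 4 samples allows. Chance gives about 1 in 20 groups, but the count cannot be set against that share. Cyp2j13 and Cyp4a12 were added after their values were seen, and Cyp2j13 gave 1 of the 3. Cyp4a14 read 11.32 in Cd151+/+ mouse 4, beside 8.01 to 8.35 in the other Cd151+/+ mice, and that value lies above all Cd151-/- mice. Cyp26b1 read 7.63 in Cd151-/- mouse 3, beside 5.17 to 5.46 in the other Cd151-/- mice. Cyp2j13 read 9.11 in Cd151-/- mouse 4, beside 4.77 to 5.08 in the others, which were at background. The cause was not tested.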

How the results depend on the processing

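Across 17 alternatives no Cyp probe passed Benjamini-Hochberg adjustment in limma (0 under each), where 4 to 8 of all probes did. The count of higher Cyp probes at an unadjusted p below 0.05 was 1 and became 0 with scaling to the 75th percentile, 2 without a detection filter, 2 with the mouse number as a replicate block, 4 with the background set as a block, 3 with a trended and robust variance, 9 with array weights, and 0 to 4 with a mouse left out. The count of lower probes was 3 and became 2 without normexp, with a cubic spline, with scaling to the 75th percentile, with the mouse number as a block and when probes had to be detected in all 4 mice of a genotype, 4 with the background set as a block, 5 with array weights, and 1 to 4 with a mouse left out, where the 1 came on leaving out +/+ mouse 2 or -/- mouse 1 or 2. Of the higher counts, 0 came on leaving out +/+ mouse 1 or 2 or -/- mouse 1, and 4 on leaving out +/+ mouse 4 or -/- mouse 2 or 3. The counts over all 14967 probes, 253 higher and 390 lower, were 2336 and 2480 with array weights, 780 and 910 with the set as a block, 139 and 250 with scaling to the 75th percentile, 205 and 215 with the mouse number as a block, and 431 and 663 of 25697 without a detection filter. With a mouse left out, 122 to 628 probes were higher and 195 to 763 lower, of 14705 to 14783 tested. Since it is not known whether the numbers pair mice, calls lost with the mouse number as a block say nothing of a weaker effect. The median of the Cyp genes stayed within its SD between mice of 0.152, from -0.067 without Cd151-/- mouse 4 to 0.14, and was also negative with scaling to the 75th percentile, which moved the median of all genes by -0.06. Over 21 named values, 286 results kept direction and side of the unadjusted threshold, 24 were no longer past it, 23 became so and 17 turned direction. Those that turned with a mouse left out were Cyp4b1 (-0.89 to 0.25), Cyp2d22 (-0.0802 to 0.153), Cyp2d26 (-0.22 to 0.47), Cyp4v3 (-0.0162 to 0.218), Cyp20a1 (-0.0606 to 0.559) and Cyp2j13 (-0.93 to 0.55). Cyp2j13 was also -0.61 with array weights, and Cyp4a12 was -0.0077 with scaling to the 75th percentile. Cyp27a1 kept an unadjusted p below 0.05 in 11 of 17 alternatives, with log2 fold changes from -0.98 to -0.51. The cause of these changes was not tested. Signal over background limits the 18 genes that were not detected on all arrays.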

Other observations

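Cd151-/- mouse 4 also held the highest signal of Kap, an androgen-regulated gene of the proximal tubule, at 10.76 beside 7.99 to 8.70 in the other Cd151-/- mice and 6.70 to 8.37 in Cd151+/+ mice. Cyp2j13, Cyp4a12, Cyp2d9, Cyp4b1 and Cyp2e1, some of which are known to be sex-biased in mouse kidney or liver, were highest in the same mouse, at 9.11, 6.34, 7.11, 13.75 and 12.09. These values were chosen after they were seen, from mice that were all male by the methods, and no relation between the values was tested.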
